A study of Mus musculus with 24 samples.

Results

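Distal MLL1 sites are 3387 regions bound by the histone methyltransferase MLL1 in NUP98-HOXA9 mouse leukaemia cells grown with the solvent DMSO. They were taken from the MLL1 peak list of these cells by position and width alone: on chromosomes 1 to 19 and X, narrower than 2000 bp, and more than 10 kb from the span of any of 21631 protein-coding genes. They make up 15.5% of the 21813 narrow regions of that list, and all 14 lists of the series hold 190166 regions on these chromosomes. Of the other narrow regions, 8871 lay within 1 kb of an end of a coding gene, 7857 inside a gene away from its ends, and 1698 outside genes but within 10 kb.

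The study mapped binding by chromatin immunoprecipitation and sequencing (ChIP-seq) in 4 mouse leukaemia lines, each named for its NUP98 fusion, after VTP50469, a small molecule that blocks the contact of menin with MLL1, or after DMSO. MLL1 was mapped in NUP98-HOXA9 (2 µM VTP50469 or DMSO, 72 h), in NUP98-HOXD13 and NUP98-JARID1A (2 µM VTP50469 or DMSO, 96 h), and in NUP98-NSD1 (200 nM VTP50469 per the sample labels, although the treatment protocol names 2 µM, or DMSO, 96 h). Menin was mapped in NUP98-HOXA9 and in NUP98-HOXD13, with 2 µM VTP50469 or DMSO for 96 h. The same agents and time were used for H3K4me3, histone H3 with 3 methyl groups on lysine 4, which was mapped in NUP98-HOXA9 alone. All cells grew with the mouse cytokines IL-3, IL-6 and SCF, each condition is 1 library, and 10 further libraries are input chromatin with no peak list used here. By the labels, the MLL1 libraries of each line came from a different run, and Menin and H3K4me3 from a run other than those of MLL1. Differences between lines or between antibodies therefore cannot be told apart from differences between runs. A region was counted as called in a list when it shared at least 1 bp with a region there. Intervals are 95% Wilson intervals over sites; they cover counting error only and say nothing of the spread between cultures, and no p-value could be computed. The lists carry no read counts, so depth is unknown, and the number of rows ran from 403 to 24950. A site missing from a list fell below the authors' calling limit there, a −log10 q of about 2, which is not the same as having no binding.

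MLL1, also called KMT2A, is a large protein that binds unmethylated CpG-rich DNA through a CXXC domain, and it adds methyl groups to lysine 4 of histone H3. Menin is a scaffold protein that binds the amino-terminal part of MLL1 and helps to hold it on a subset of its targets. H3K4me3 marks active promoters, whereas enhancers far from genes usually carry the monomethylated form. In acute myeloid leukaemia with NUP98 fusions, the fusion proteins act at developmental genes such as the HOX genes.

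Sequence was at hand only for promoter windows and miRNAs, from RefSeq (assembly GRCm38.p6, the build mm10 of the lists). Some distal sites covered the promoter of a noncoding gene. The 4 windows shown are the pair of highest fold without H3K4me3 and the pair of highest fold with it. They were taken from windows wholly inside a site, to let the CpG content of such strong sites be seen. Each runs from 250 bases before to 50 after the annotated start, 5′ to 3′ on the gene's strand, with every CG dinucleotide in capitals. D130051D11Rik (chr15:85634346-85634645, plus strand) and Gm2885 (chr17:6827967-6828266, minus strand) lay in sites without H3K4me3, and 1700096K18Rik (chr5:25529768-25530067, plus strand) and 2810410L24Rik (chr11:120189807-120190106, minus strand) lay in sites with it. All 4 are long noncoding RNA genes.
D130051D11Rik: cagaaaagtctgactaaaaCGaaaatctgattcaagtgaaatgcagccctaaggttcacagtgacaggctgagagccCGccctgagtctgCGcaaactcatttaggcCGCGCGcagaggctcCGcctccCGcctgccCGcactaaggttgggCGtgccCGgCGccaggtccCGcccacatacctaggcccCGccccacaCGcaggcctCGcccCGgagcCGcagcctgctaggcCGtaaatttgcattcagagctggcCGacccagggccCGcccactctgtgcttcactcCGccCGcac
Gm2885: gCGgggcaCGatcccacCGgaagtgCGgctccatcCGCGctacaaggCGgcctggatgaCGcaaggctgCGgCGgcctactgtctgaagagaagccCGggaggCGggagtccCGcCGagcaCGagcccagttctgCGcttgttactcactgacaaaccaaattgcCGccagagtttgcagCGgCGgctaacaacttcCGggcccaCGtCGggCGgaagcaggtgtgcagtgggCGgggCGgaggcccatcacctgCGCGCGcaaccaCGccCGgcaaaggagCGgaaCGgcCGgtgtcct
1700096K18Rik: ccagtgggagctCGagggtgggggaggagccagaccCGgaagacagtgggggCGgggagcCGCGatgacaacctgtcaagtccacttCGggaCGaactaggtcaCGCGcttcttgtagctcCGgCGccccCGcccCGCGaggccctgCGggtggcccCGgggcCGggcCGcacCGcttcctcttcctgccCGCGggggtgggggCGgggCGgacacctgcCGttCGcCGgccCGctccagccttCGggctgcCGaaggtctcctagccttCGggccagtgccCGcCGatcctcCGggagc
2810410L24Rik: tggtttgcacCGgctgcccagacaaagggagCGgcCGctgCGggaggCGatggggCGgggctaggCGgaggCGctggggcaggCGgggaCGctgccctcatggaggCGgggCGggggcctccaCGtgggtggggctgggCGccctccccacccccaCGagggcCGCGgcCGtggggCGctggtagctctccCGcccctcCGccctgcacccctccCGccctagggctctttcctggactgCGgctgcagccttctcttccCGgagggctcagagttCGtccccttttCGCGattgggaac
These windows held 23, 33, 33 and 27 CG dinucleotides, in the order shown, and had G+C contents of 63.7%, 67.7%, 74.0% and 74.0%. All 4 lay above the median of 4 in the windows of noncoding genes. They also lay above the medians of windows overlapped by distal sites, 15 with H3K4me3 and 6 without it. The 4 are thus not typical of such windows.

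Other distal sites lay close to miRNA genes known from blood cells, and the mature products below show which of them belong together, with the seed (bases 2 to 8) in capitals.
let-7a-5p: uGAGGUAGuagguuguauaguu
let-7f-5p: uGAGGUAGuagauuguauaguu
let-7d-5p: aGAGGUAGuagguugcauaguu
miR-17-5p: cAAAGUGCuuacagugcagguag
miR-20a-5p: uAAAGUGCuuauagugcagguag
miR-223-3p: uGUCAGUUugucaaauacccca
Mirlet7a-1, Mirlet7f-1 and Mirlet7d sit next to each other on the minus strand of chromosome 13 (let-7a-5p at chr13:48538239-48538260), and their products share the seed GAGGUAG. Mir17 and Mir20a, of the oncogenic miR-17 cluster on the plus strand of chromosome 14 (miR-17-5p at chr14:115043684-115043706), share AAAGUGC. Mir223, which restrains neutrophil production, is on the plus strand of chromosome X (miR-223-3p at chrX:96242884-96242905) and has the seed GUCAGUU. These miRNAs were picked after their values had been seen.

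Distal sites were weaker and narrower than sites at gene ends. The authors' fold enrichment over background had a median of 6.80 at distal sites (quartiles 5.1 and 10.2) and 13.3 at gene ends (7.65 and 22.1). Their median width was 411 bp, against 704 bp at gene ends. Sites within 10 kb of genes resembled them, with medians of 6.80 and 418.5 bp, and sites inside genes had a median fold of 6.52 and a median width of 440.0 bp. The distance to the nearest coding gene had a median of 37.7 kb, with quartiles of 19.1 and 93.4 kb and a maximum of 1812 kb. Of the distal sites 1008 (29.8%) overlapped a noncoding gene, pseudogene or gene segment, 880 of them a long noncoding RNA gene, and 1612 (47.6%) were more than 10 kb from genes of every type.

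Most distal sites stayed called for MLL1 after VTP50469 in NUP98-HOXA9. Of the 3387 sites, 2677 were called (79.0%, interval 77.6% to 80.4%), beside 78.1% of all narrow sites of the list, so the share was near the background. The 710 sites that were not called are 21.0% (19.6% to 22.4%), beside 21.9% of all narrow sites. The groups around them spread widely: 8.14% of gene-end sites, 19.8% of sites within 10 kb and 38.2% of sites inside genes were not called.

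Whether a distal site was still called went with its strength in DMSO. Sites that were not called had a median fold of 4.94 (quartiles 4.25 and 5.67), and those that were called 7.93 (5.90 and 11.3). When all narrow sites were cut into 5 bins of equal number by fold, 414 of 833 distal sites of the lowest bin were still called (49.7%, 46.3% to 53.1%), against 43.3% of gene-end sites and 25.9% of sites inside genes. In the second bin 74.4% of distal sites were called, against 77.9% of gene-end sites and 55.0% of sites inside genes. From the third bin up, 92.9%, 98.7% and 99.6% of distal sites were called. Sites outside genes but within 10 kb of one were close to the distal sites, with 52.0%, 74.6% and 94.3% called in the 3 lowest bins. In each of the 4 lower bins the distal share lay closer to that of gene ends than to that of sites inside genes, which were called least often. The difference in the share not called, distal minus other narrow sites, was −1.09 points in all (−2.56 to 0.44), but −17.0 points in the lowest bin (−20.7 to −13.2) and −10.1 points in the second (−13.3 to −6.73). These differences are from a mix that holds the sites inside genes, and nearby sites outside genes had about the distal shares.

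**Figure D1:**
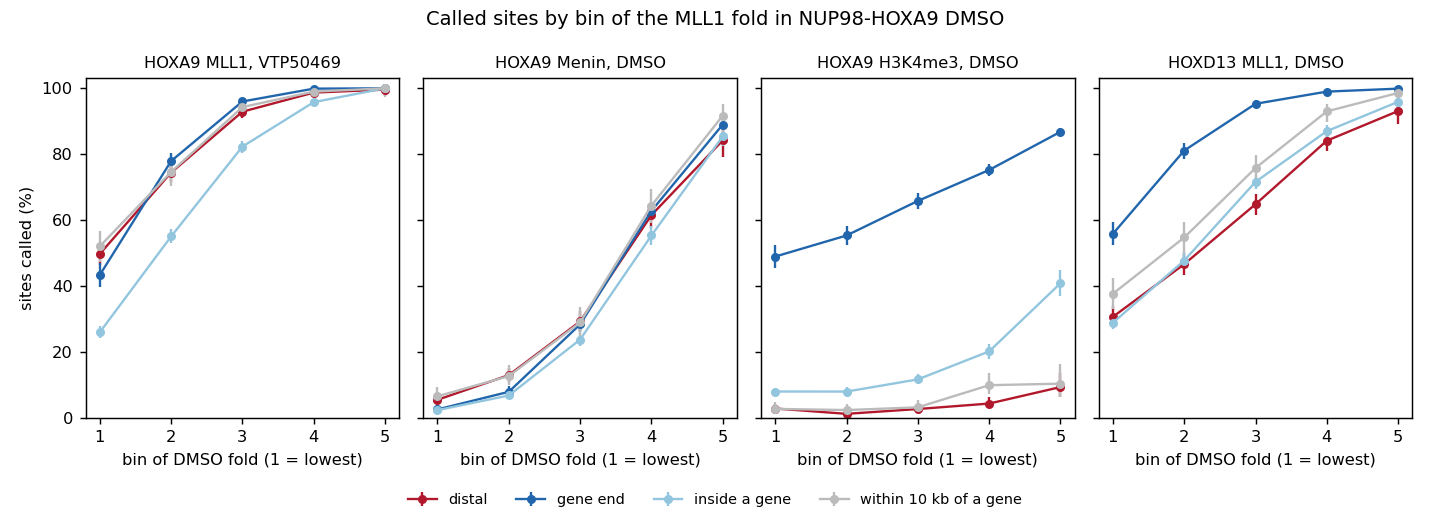
Percent of narrow MLL1 sites of NUP98-HOXA9 DMSO that were called in 4 other lists (vertical axes), by bin of their DMSO fold (horizontal axes, 5 bins of equal number over all narrow sites, 1 is the lowest), for distal sites and 3 other position classes, with 95% Wilson intervals. Distal sites lie near gene-end sites for MLL1 after VTP50469 and for Menin, and below them in every bin for H3K4me3 and for MLL1 of NUP98-HOXD13.

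Where a distal site was called in both lists, summits lay close and median widths were similar. Only sites that overlapped a treated region enter here, which by itself keeps summits near, so stable placement is not shown. Where more than 1 treated region overlapped a site, the nearest summit and the summed width were taken. The summits lay a median of 35.0 bp apart, and 2318 of 2677 (86.6%) within 100 bp. At gene ends the median was 31.0 bp. The width after VTP50469 divided by that in DMSO had a median of 1.03 at distal sites (quartiles 0.839 and 1.27) and 0.931 at gene ends (0.747 and 1.10).

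The treated cells also had distal sites that were not called in DMSO. By the same rule the treated MLL1 list held 3949 distal sites, or 18.4% of its 21453 narrow regions (17.9% to 18.9%), against 15.5% in DMSO (15.1% to 16.0%). Of these 3949 sites, 1212 (30.7%) did not overlap the DMSO list, beside 17.3% of all narrow treated regions.

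Menin was called at 56 distal sites after VTP50469 (1.65%, beside 1.41% of all narrow sites) and at 987 in DMSO (29.1%, beside 37.6%), at 96 h in NUP98-HOXA9. Of those 987 sites, 933 no longer had Menin after VTP50469 (94.5%, 92.9% to 95.8%, beside 96.3% of all narrow sites with Menin). At 926 of the 987 (93.8%) MLL1 was still called at 72 h although Menin was not called at 96 h, beside 7862 of 8193 (96.0%) over all narrow sites. With both Menin lists cut to equal length, 28 of 51 distal sites lost Menin, and Menin was called at 1.65% of the distal sites after VTP50469 and 1.51% in DMSO.

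Nearly all distal sites with Menin in DMSO kept MLL1. MLL1 was not called after VTP50469 at 10 of 987 sites with Menin (1.01%, 0.55% to 1.85%) and at 700 of 2400 without it (29.2%, 27.4% to 31.0%). Over all narrow sites the counts were 31 of 8193 (0.378%) with Menin and 4742 of 13620 (34.8%) without, so the contrast runs through the whole list. Since Menin was called mainly at strong sites, the same was read within bins of fold. In the lowest bin MLL1 was called after VTP50469 at 38 of 45 sites with Menin (84.4%, 71.2% to 92.3%) and at 376 of 788 without (47.7%, 44.2% to 51.2%). In the second bin the counts were 110 of 113 with Menin (97.3%) and 543 of 765 without (71.0%), and in the third 236 of 236 and 514 of 571 (90.0%). Menin itself was called at 29.2% of distal and 28.3% of gene-end sites in the third bin of fold and at 61.5% and 62.8% in the next. In the highest bin it was at 84.2% of distal (79.2% to 88.1%) and 89.0% of gene-end sites (87.9% to 90.0%), and in the lowest at 5.4% (4.06% to 7.15%) and 2.48% (1.60% to 3.85%).

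H3K4me3 was rare at distal sites. It was called at 124 distal sites after VTP50469 (3.66%, 3.08% to 4.35%) and at 104 in DMSO (3.07%, 2.54% to 3.71%), beside 37.0% and 35.4% of all narrow sites. At gene ends the shares were 76.2% after VTP50469 and 73.5% in DMSO, while sites outside genes but within 10 kb of one were nearly as low as distal sites, at 5.71% and 4.65%. Of the 104 distal sites 86 kept H3K4me3 and 18 did not (17.3%, 11.2% to 25.7%, beside 5.62% of all narrow sites with the mark), while 38 had it after VTP50469 alone. Where a summit inside the H3K4me3 region was asked for, 43 distal sites after VTP50469 and 42 in DMSO remained, and 16 of those 42 were lost (38.1%). The commonest bound state of a distal site was MLL1 without Menin and without H3K4me3, at 2337 sites (69.0%), against 16.1% of gene-end sites. It was also the commonest state over all narrow sites, at 47.6%. MLL1 with Menin and no H3K4me3 was found at 946 distal sites (27.9%), 10.4% of gene-end sites and 17.0% of all narrow sites. All 3 together were found at 41 distal sites (1.21%), 45.2% of gene-end sites and 20.6% of all narrow sites.

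**Figure D2:**
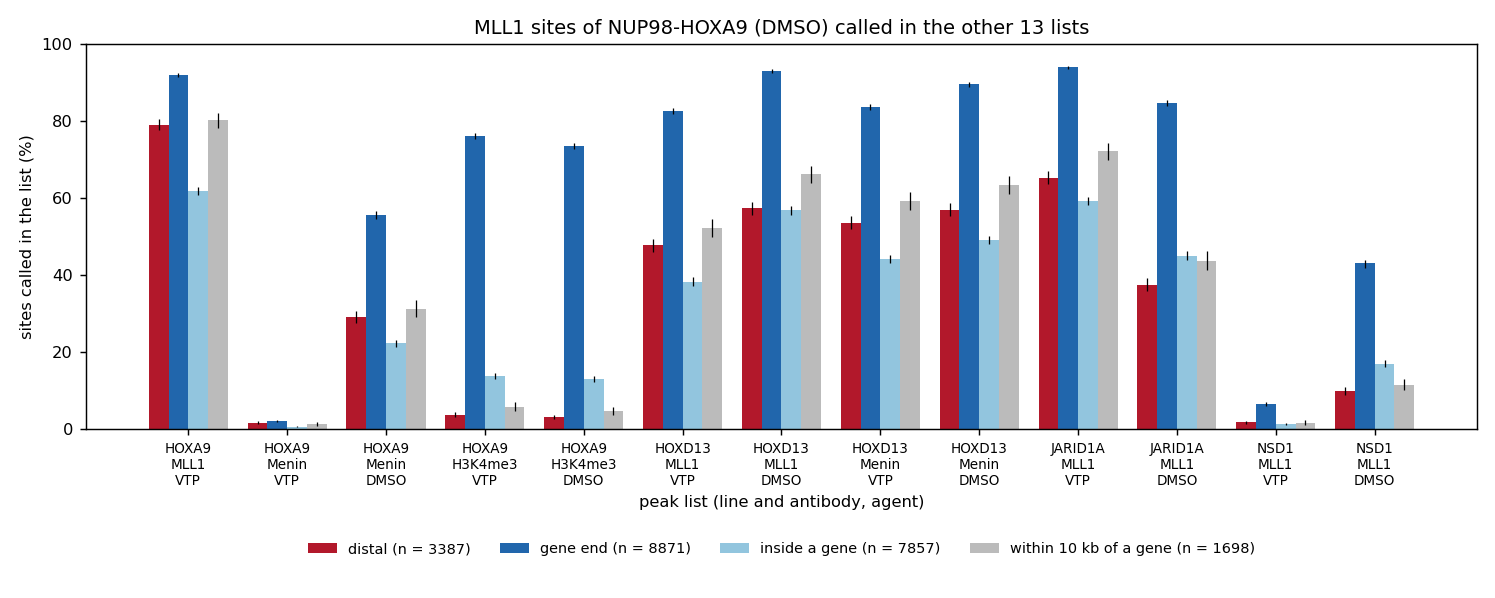
Percent of narrow MLL1 sites of NUP98-HOXA9 DMSO called in each of the other 13 lists (bars, with 95% Wilson intervals), for distal sites, sites at gene ends, inside genes and within 10 kb of genes. Distal sites are below gene-end sites in every list and near 3% in both H3K4me3 lists.

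Part of the H3K4me3 at distal sites lay at promoters of noncoding genes. Of 165 distal sites that overlapped a promoter window, 34 had H3K4me3 in DMSO (20.6%, 15.1% to 27.4%), against 70 of the 3222 others (2.17%, 1.72% to 2.74%). Promoter sites were not called for MLL1 after VTP50469 in 12.1% of cases and the others in 21.4%. MLL1 in NUP98-HOXD13 DMSO was called at 80.6% of promoter sites and 56.1% of the others, and in NUP98-NSD1 DMSO at 25.5% and 9.06%. Promoter sites were more often strong: 26 of the 165 and 233 of the 3222 others lay in the highest bin of fold. The lowest bin held 20 and 813. These MLL1 shares were not compared within bins of fold. The 45 windows overlapped by a site with H3K4me3 had a median of 15 CG dinucleotides in 300 bases, and the 151 overlapped by a site without it had 6. All 11574 windows of noncoding genes had a median of 4, and all 32619 windows, coding genes included, 7.

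Short motifs of blood transcription factors were searched on both strands of the windows, 8 in all, none of which is contained in another. GAGGAAGT, a form bound by ETS factors such as PU.1, was in 9.69% of the 196 windows overlapped by a distal site, in 3.34% of noncoding windows and in 3.22% of all windows. TTGCNNAA, the form bound by C/EBP factors, was in 17.3%, 11.9% and 10.9%, and TGTGGT, the RUNX form, in 25.5%, 20.1% and 16.6%. TGANTCA, the AP-1 form, was in 12.8%, 9.31% and 7.85%. AGATAA, the GATA form, was in 12.8%, 14% and 11.2%. Of the homeobox forms, TGATTGA was in 3.57% of overlapped and 2.72% of all windows. The other form, TGATTTA, was in 2.04% and 2.96%. CCACNAGG, a CTCF form, was in 7.65% and 5.02%. Of the windows printed above, D130051D11Rik holds TGANTCA and 2810410L24Rik holds CCACNAGG, and the other two hold none of the 8. A match is a string of letters and does not show binding.

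Distal sites were shared between the leukaemia lines less often than gene-end sites. MLL1 in DMSO was called at 1941 of them in NUP98-HOXD13 (57.3%, beside 72.3% of all narrow sites), at 1268 in NUP98-JARID1A (37.4%, beside 59.9%) and at 334 in NUP98-NSD1 (9.86%, beside 26.0%). At gene ends the NUP98-HOXD13 and NUP98-JARID1A shares were 92.9% and 84.7%. Sites inside genes were nearer to distal sites, at 56.8% and 45.0%, as were sites within 10 kb, at 66.1% and 43.7%. Low sharing was thus not particular to distal sites. The gap to gene ends held at like fold: in the third bin MLL1 of NUP98-HOXD13 was called at 64.8% of distal and 95.3% of gene-end sites, and in the highest at 93.1% and 99.9%. In the third bin sites inside genes had 71.6% and sites within 10 kb 75.8%. Counting the 4 DMSO lists of MLL1, 1182 distal sites (34.9%) were in the NUP98-HOXA9 list alone, 1108 (32.7%) in 2, 856 (25.3%) in 3 and 241 (7.12%) in all 4. These shares were 4.18%, 12.2%, 42.5% and 41.1% at gene ends and 20.5%, 23.7%, 33.0% and 22.9% over all narrow sites. Distal sites called in NUP98-HOXA9 alone were missing after VTP50469 in 41.6% of cases, and those in 2, 3 and 4 lines in 14%, 5.02% and 8.3%. Over all narrow sites the shares were 57.3% for those in NUP98-HOXA9 alone and 25.8%, 7.83% and 6.3% for those in 2, 3 and 4 lines. Menin in NUP98-HOXD13 DMSO was called at 1929 distal sites (57.0%, beside 67.9%), among them 926 of the 987 with Menin in NUP98-HOXA9.

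In the other lines the treated lists differed in direction at the distal sites. In NUP98-HOXD13, MLL1 was called at 1615 of them after VTP50469 (47.7%, beside 58.9%). There 518 of the 1941 called in DMSO were lost (26.7%, 24.8% to 28.7%, beside 22.2% of all narrow sites). Of the 1446 not called in DMSO, 192 were called after VTP50469, beside 572 of 6041 over all narrow sites. Menin in NUP98-HOXD13 was called at 1816 after VTP50469 (53.6%, beside 62.8%) and lost at 311 of 1929 (16.1%, 14.5% to 17.8%, beside 12.0%). In NUP98-JARID1A, MLL1 was called at 2211 after VTP50469 (65.3%, beside 75.3%), and 59 of 1268 were lost (4.65%, 3.62% to 5.96%, beside 4.71%). Of the 2119 distal sites not called in DMSO there, 1002 were called after VTP50469, beside 3969 of 8751 over all narrow sites. The difference, VTP50469 minus DMSO, was 27.8 points at distal sites and 13.1 points at the other narrow sites. Fewer distal sites were called in DMSO to begin with, 37.4% against 64.0% of the other narrow sites. In NUP98-NSD1, MLL1 was called at 57 after VTP50469 (1.68%, beside 3.49%) and lost at 282 of 334 (84.4%, 80.2% to 87.9%, beside 88.7%).

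These counts depended on the length of the lists. With both lists of a pair cut to the same number of regions by fold, the difference at distal sites was 8.56 points in NUP98-JARID1A instead of 27.8, 5.67 points for MLL1 in NUP98-HOXD13 instead of −9.63, 2.57 points for Menin in NUP98-HOXD13 instead of −3.34, and 0.0 points in NUP98-NSD1 instead of −8.18. Losses were then 213 of 1268 in NUP98-JARID1A, 229 of 1423 for MLL1 in NUP98-HOXD13 and 29 of 57 in NUP98-NSD1. No distal site was called in all 14 lists, which allows a share of up to 0.0886% by the rule of 3 counts over the 3387 sites. Of gene-end sites 50 of 8871 (0.564%) were called in all 14, and of all narrow sites 52 of 21813 (0.238%). All 8 MLL1 lists held 29 distal sites (0.856%) and 457 gene-end sites (5.15%), beside 2.54% of all narrow sites. In no list but their own were 376 distal sites (11.1%), beside 8.99% of all narrow sites.

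Sites farther from genes were shared between lines less often, while retention showed no steady change with distance. After VTP50469, MLL1 in NUP98-HOXA9 was called at 80.8% of the 1177 sites 10 to 25 kb from a coding gene, 77.4% of the 509 sites at 100 to 250 kb, 74.0% of the 181 sites at 250 to 500 kb (67.2% to 79.9%) and 82.3% of the 113 sites beyond 500 kb (74.2% to 88.2%). MLL1 in NUP98-HOXD13 DMSO was called at 61.2% of the nearest sites (58.4% to 63.9%), 52.8% at 100 to 250 kb, 34.3% at 250 to 500 kb and 31.9% beyond 500 kb (24.0% to 40.9%). MLL1 in NUP98-JARID1A DMSO was called at 41.7% of the nearest and 23.0% of the farthest sites. The median fold of the bins lay between 6.52 and 7.09. Menin in NUP98-HOXA9 DMSO was at 30.0% of the nearest sites, 23.8% at 250 to 500 kb and 27.4% of the farthest sites.

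**Figure D3:**
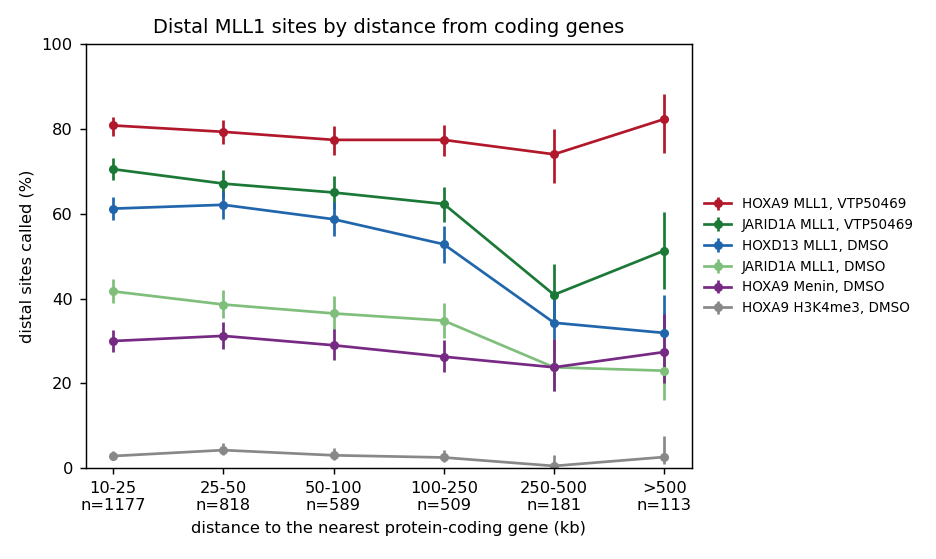
Percent of the 3387 distal sites called in 6 lists (vertical axis) by distance to the nearest protein-coding gene (horizontal axis, number of sites under each bin), with 95% Wilson intervals. MLL1 of the same line after VTP50469 stays between 74.0% and 82.3%, while MLL1 of NUP98-HOXD13 DMSO is called at 61.2% of the nearest and 31.9% of the farthest sites.

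Distal sites that lay in clusters were lost more often than those that lay alone. Clusters of at least 4 distal sites with gaps under 25 kb numbered 123 and held 631 sites, and 1513 sites had no other distal site within 25 kb. MLL1 was not called after VTP50469 at 224 of the 631 clustered sites (35.5%, 31.9% to 39.3%) and at 223 of the 1513 single ones (14.7%, 13% to 16.6%). Their median folds were 6.52 and 7.09. Within the lowest bin of fold 69.5% of clustered and 42.9% of single sites were not called, within the second 44.1% and 15.7%, and within the third 18.4% and 3.21%. In other lists the groups were closer: Menin in NUP98-HOXA9 DMSO was at 23.0% of clustered and 32.5% of single sites, and MLL1 in NUP98-HOXD13 DMSO at 53.4% and 58.0%. The intervals treat sites of the same cluster as independent, so those for clustered sites may be too narrow. The same contrast over all narrow sites is not given here.

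**Figure D4:**
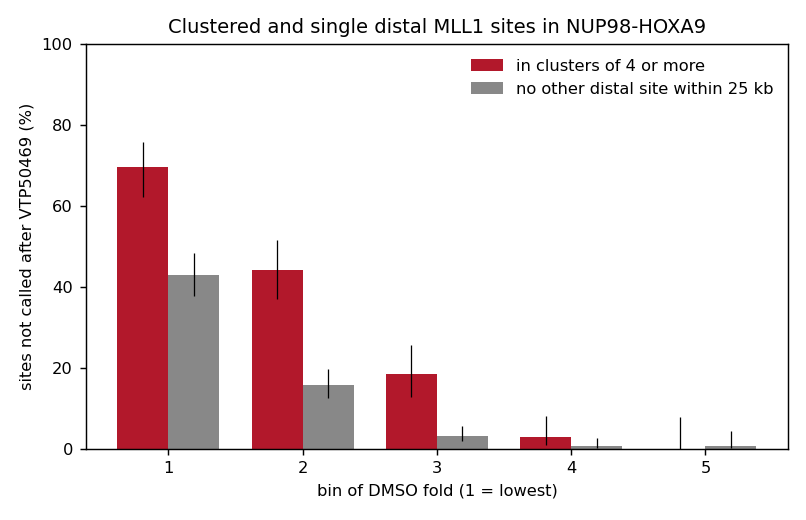
Percent of distal sites not called for MLL1 after VTP50469 in NUP98-HOXA9 (bars, with 95% Wilson intervals) by bin of DMSO fold, for sites in clusters of 4 or more and for sites with no other distal site within 25 kb. In the lowest bin the values are 69.5% and 42.9%, in the third 18.4% and 3.21%.

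The cluster with most sites held 13 over 59.2 kb between Ift57, which encodes a cilium protein, and Cd47, the "don't eat me" surface protein (chr16:49781387-49840568). After VTP50469, 5 of the 13 were called, and 1 had Menin in DMSO: the strongest, of fold 18.5, next to Cd47. A cluster of 11 near Tbl1xr1, a corepressor gene (chr3:21911203-21992542), kept 8, and a cluster of 9 near Tex44 and Ptma, the prothymosin alpha gene (chr1:86470452-86509787), also kept 8. Other clusters with 9 sites lay near Chd2, a chromatin remodeller gene, where 4 were called after VTP50469, and beside Bcl2l11, the gene of the cell death protein BIM, where 6 were.

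Genes next to distal sites numbered 1781, of which 1064 had 1 site and 119 had 5 or more. Among lists of known genes, Hox genes had none. HOX partners and menin-MLL leukaemia targets had 34 sites at 13 of 31 genes, and 11 were not called after VTP50469 (32.4%, 19.1% to 49.2%). Stem and progenitor transcription factors had 37 sites at 13 of 26 genes, with 11 not called (29.7%, 17.5% to 45.8%). Myeloid transcription factors had 56 sites at 14 of 25 genes, with 9 not called (16.1%, 8.69% to 27.8%), and blood cell receptors and surface proteins had 41 at 12 of 24, with 6 not called (14.6%, 6.88% to 28.4%). Housekeeping genes had 7 sites at 4 of 25 genes, with 1 not called (14.3%, 2.57% to 51.3%). All these intervals include the 21.0% of all distal sites, and median folds of the lists lay between 6.24 and 7.94.

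Sites of the stem cell gene Lmo2, which encodes a scaffold of blood transcription factor complexes, were among the least retained, with 1 of 5 called after VTP50469 and 4 of 5 called for MLL1 in NUP98-HOXD13 DMSO. Mbnl1, a splicing regulator gene, kept 3 of 7, and Mef2c, a transcription factor gene of progenitors, kept 1 of 3. Zeb2, a zinc finger repressor gene of blood cells, kept all 7, at 144.5 to 1255 kb from the gene. Cebpb, a C/EBP factor gene, kept 7 of 9, Klf6, a zinc finger factor gene, 7 of 11, the AP-1 gene Jun 7 of 8, and Cxcr4, the receptor gene for homing to bone marrow, 7 of 8. Runx1, a master regulator gene of blood stem cells, kept 5 of 6. Gata2, Erg, Kit and Meis1 had 1 distal site each, called after VTP50469, whereas the only site of Myb, a transcription factor gene of progenitors (fold 4.94), and those of Dach1 (4.54), Tcf4 (5.1) and Tfrc (4.68) were not called. The Gata2 site (chr6:88166119-88166408, 27.5 kb away, fold 14.5) had Menin in DMSO and not after VTP50469, and was also called in NUP98-HOXD13 and NUP98-JARID1A in both conditions. The Meis1 site, of fold 4.25, had no Menin in either condition.

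The strongest sites near several transcription factor genes had MLL1 with Menin and no H3K4me3 in DMSO, the state of 27.9% of all distal sites. The sites named here lie in the highest bin of fold, where that state is common. In NUP98-HOXA9 DMSO, Menin was called at 84.2% and H3K4me3 at 9.27% of all distal sites of that bin. The strongest of the Cebpb sites (chr2:167753766-167754446, 63.3 kb from the gene) had a fold of 38.6, and its MLL1 region was 711 bp wide after VTP50469 and 681 bp in DMSO. In NUP98-HOXA9 its Menin region of 525 bp in DMSO was not called after VTP50469, and no H3K4me3 was called. The strongest Runx1 site (chr16:92867253-92867780, fold 23.0, 41.2 kb away) had MLL1 over 577 bp after VTP50469 and 528 bp in DMSO, and Menin over 411 bp in DMSO and not after VTP50469 in NUP98-HOXA9. The strongest Jun site (chr4:95215011-95215680, fold 35.2) was 1 of the few to keep Menin, over 310 bp after VTP50469 and 507 bp in DMSO. MLL1 at this site was 806 bp wide after VTP50469 and 670 bp in DMSO. A Zeb2 site inside the noncoding gene Vis1 (chr2:45279330-45280246, fold 40.3) likewise had Menin over 271 bp after VTP50469 and 462 bp in DMSO.

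The distal site with the highest fold, 79.9, had no Menin. It lies on chromosome 12 (chr12:97061431-97061790), 1140 kb from the nearest coding gene, Galc, which encodes a lysosomal enzyme. MLL1 was called there over 344 bp after VTP50469 and 360 bp in DMSO in NUP98-HOXA9, and after VTP50469 over 265 bp in NUP98-HOXD13 and 292 bp in NUP98-JARID1A. No Menin or H3K4me3 list and no DMSO list of another line held it. Its −log10 q was 719.4, against 195.4 to 292.3 at the other sites of the top 10. Whether this call reflects binding was not tested. The next sites by fold lay near Kntc1, a kinetochore gene (51.6), Wnt7b, a Wnt ligand gene (51.0, the D130051D11Rik promoter printed above), and the homeobox gene Hlx of the blood system, with 2 sites (48.6 and 42.8). The other 5 of the top 10 were near the homeobox gene Tlx1 (44.5), the TEAD factor gene Tead4 (44.2), Wsb1 (43.9), Ptafr, the platelet-activating factor receptor gene (42.8), and Zfat (42.0). All 9 had MLL1 in both conditions of NUP98-HOXA9, NUP98-HOXD13 and NUP98-JARID1A, Menin in DMSO, and no H3K4me3. Such calls are common in the highest bin of fold. Of all distal sites there, MLL1 was called at 99.6% after VTP50469 in NUP98-HOXA9 and at 93.1% in NUP98-HOXD13 DMSO. In NUP98-HOXA9 DMSO, Menin was at 84.2% and H3K4me3 at 9.27% of them. Menin after VTP50469 was called at 3 of the 9, near Kntc1, Wnt7b and Hlx, beside 13.5% of distal sites in that bin.

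The strongest distal sites missing after VTP50469 were much weaker, with folds of 17.9 and below. The first, 830.9 kb from Tyrp1, a pigment enzyme gene (chr4:80002768-80003244), was in no other list. The second, of fold 13, lay in the immunoglobulin heavy chain locus, nearest to Zfp386 (chr12:115311974-115312355), and was called in 5 lists of NUP98-HOXD13 and NUP98-JARID1A. The others lay near Abcd3, a peroxisomal transporter gene (11.1), Eea1, an endosome gene (10.8), Lipg (10.8), Ift57 (10.5), Psat1, a serine synthesis gene (10.5), Mbnl1 (10.2), Fut8, a fucosyltransferase gene (10.0), and Tent5a (9.92). None of these 10 had Menin in NUP98-HOXA9.

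Among the 10 highest-fold sites called in all 8 MLL1 lists, 4 overlapped the promoter of a noncoding gene. Over all distal sites 165 of 3387 (4.87%) did, and 26 of 259 in the highest bin of fold. Of the 3 sites in 13 lists, 1 covers the 1700096K18Rik promoter (chr5:25529111-25530496, fold 34.0), and was missing from the list of Menin in NUP98-HOXA9 after VTP50469. It had MLL1 over 945 bp after VTP50469 and 1386 bp in DMSO, and H3K4me3 over 564 bp after VTP50469 and 733 bp in DMSO. The others lay near 4930467E23Rik (fold 29.9) and near Csf2ra, a growth factor receptor gene (fold 6.64). The site near 4930467E23Rik lies 30.8 kb from that gene. Sites called in all 8 MLL1 lists also lay near Vmn2r126, Slc22a28 and Slc22a8, at 37.7, 41.3 and 72.1 kb. These genes belong to families of similar copies. Placement of reads at these sites may be uncertain, which was not tested. Other sites in all 8 MLL1 lists lay near Ccne1, the cyclin E1 gene (fold 39.1), Ptgs2, the cyclooxygenase gene (36.9, at the antisense gene Ptgs2os2), and Ifnar1, an interferon receptor gene (26.4). In addition, 4 sites had a fold below the lower quartile of 5.1 but a −log10 q of at least 20, the extreme being 3925 at a site of fold 2.27 nearest to Lrrc4c (chr2:98666601-98667280). All 4 were called for MLL1 after VTP50469, and 3 for Menin after VTP50469. These 3 are among the 56 distal sites with Menin after VTP50469 in NUP98-HOXA9, and whether such calls reflect binding was not tested. In the lowest bin of fold, Menin was called after VTP50469 at 13 of 833 distal sites (1.56%). The shares in that bin were 0.392% at gene ends, 0.17% inside genes and 0.0% within 10 kb of genes.

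Of the distal sites 27 lay within 10 kb of a miRNA hairpin. The site 7241 bp from Mirlet7a-1 (chr13:48545513-48546981, fold 37.1) was in 12 lists. MLL1 covered 1387 bp there after VTP50469 and 1469 bp in DMSO, H3K4me3 900 bp after VTP50469 and 821 bp in DMSO, and Menin 555 bp in DMSO and not after VTP50469, all in NUP98-HOXA9. Upstream of Mir17 were 2 sites, both called after VTP50469. The stronger (chr14:115040531-115041160, fold 20.4, 2511 bp away) had Menin in DMSO and H3K4me3 in both conditions, and the weaker (fold 8.22, 1219 bp away) had neither. The Mir223 site (chrX:96235889-96236248, fold 12.8, 6569 bp away) had MLL1 over 513 bp after VTP50469 and 360 bp in DMSO, Menin in DMSO and not after VTP50469, and no H3K4me3. It was also called in NUP98-JARID1A in both conditions and in no list of NUP98-HOXD13. By contrast, 2 sites near Mir222 (folds 5.1 and 3.69) and 1 near Mir181d (3.97) were in no other list. Of 5 sites in or near Dleu2, the host gene of Mir15a and Mir16-1, none was called after VTP50469 in NUP98-HOXA9 (folds 3.9 to 7.09). All told, the list of noncoding genes known in blood had 26 sites within 10 kb of 8 of its 20 annotated genes, and 9 were not called (34.6%, 19.4% to 53.8%). Morrbid, a noncoding gene that controls the life span of myeloid cells, had 12 of these sites, 9 of them called after VTP50469.

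The gene desert downstream of Myc, a growth regulator gene, holds an enhancer cluster known to act on Myc in blood cells. It was looked at after values had been seen. The 12 distal sites there lay between 1507 and 1714 kb past the end of Myc, nearest to Gsdmc by the table, and 8 were called after VTP50469. The site at 1714 kb (chr15:63703922-63705437, fold 22.1) was in 11 lists and kept Menin, over 279 bp after VTP50469 and 537 bp in DMSO. The sites at 1658 kb (fold 12.8) and 1667 kb (fold 6.80) had MLL1 in both conditions of NUP98-HOXA9, NUP98-HOXD13 and NUP98-JARID1A and in NUP98-NSD1 DMSO. Menin was called at both sites in NUP98-HOXD13 in both conditions, and in NUP98-HOXA9 in DMSO and not after VTP50469. The 4 sites not called, at 1611, 1616, 1657 and 1675 kb, had folds of 3.93 to 5.1 and were in no other list. H3K4me3 was called at none of the 12. A further 5 sites lay 47.4 to 880.8 kb past Myc, of which 4 were called after VTP50469, and the 1 that was not, within the noncoding gene Pvt1, had H3K4me3 in both conditions.

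**Figure D5:**
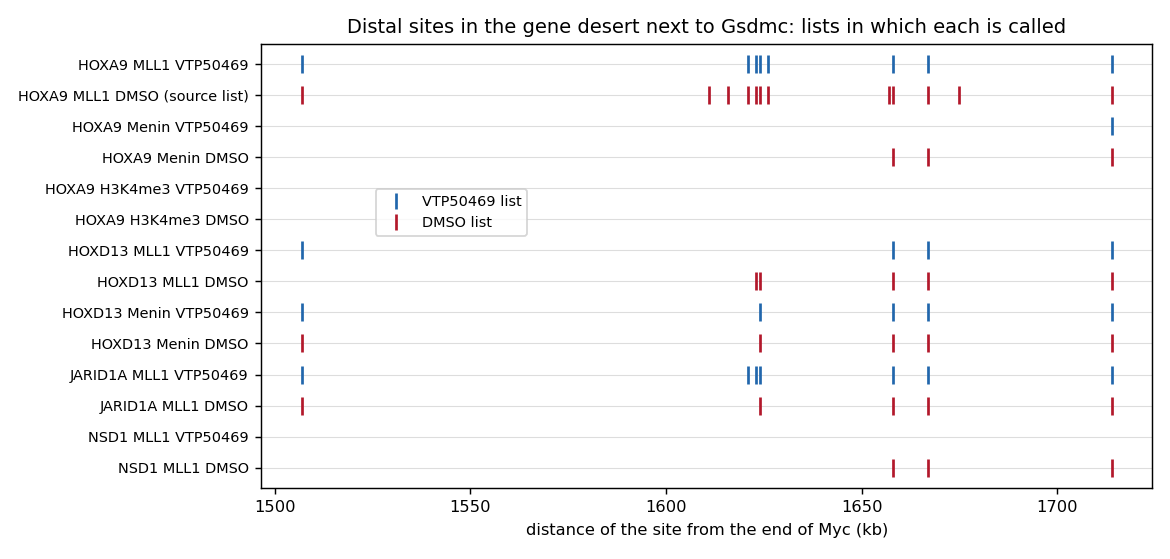
Distal MLL1 sites in the gene desert downstream of Myc (horizontal axis, distance from the end of Myc in kb) and the lists in which each was called (rows, a tick per site called; the row of NUP98-HOXA9 MLL1 DMSO holds all 12 by definition). Sites at 1658, 1667 and 1714 kb are called in 10 or 11 lists, and the 4 sites at 1611, 1616, 1657 and 1675 kb in their own list alone.

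At the limits of the choice, the included sites nearest to 10 kb lay near Lrrc8c and Jag2 with folds of 3.68 and 4.44, and the nearest ones left out lay near Ninj2 and Mrto4 with folds of 14.5 and 6.75. Sites just under 2000 bp lay near Spdye4c (1982 bp, fold 7.09) and Akr1e1 (1995 bp, 12.2), and a site just over it near Bmp2k (2002 bp, 47.3). All 7 of these sites were called for MLL1 after VTP50469.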

How the data were processed

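The 14 peak lists of a mouse ChIP-seq series were used, 1 per library. Per the submitters' processing notes, the authors' tools included MACS2, bedtools, STAR 2.7.5a, SAMtools, bcl2fastq 2.20.0.422 and Picard 2.9.4, and the build was mm10. Neither the roles and settings of the tools nor the control input behind each list was given in the sources used here. The labels show no DMSO input for NUP98-NSD1 or for NUP98-HOXA9 at 96 h among those used here. Each deposited row gives the authors' score, fold (a ratio), and −log10 of p-value and q-value, and a summit. Fold was used within 1 list only, and the weakest deposited −log10 q was between 2.00 and 2.23 in the 14 lists. A list that passes more regions finds more overlaps, so counts depend on depth and immunoprecipitation, which the lists do not show.

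Overlaps (at least 1 bp) were made with bedtools 2.31.1 and checked against separate code, which was also tested on simulated regions, in Python. The rows on other chromosomes (39 to 236 per list) were left out. No rows of a list overlapped each other. Gene spans came from RefSeq GRCm38.p6. Noncoding and coding genes carry no exon structure in this table, so exons, introns and untranslated regions are not given. A genome sequence was not used here, so the planned sequence description of the sites was replaced by that of promoter windows, with 8 short motifs. The labels' line, antibody, agent and time gave the groups. Region names inside both NUP98-HOXD13 MLL1 lists carry the labels' line, antibody, agent, run and barcode but another sample number, one that the labels give to inputs of that line from another run. The lists were used as deposited for their samples, and the difference could not be settled further. The sites, lists and rules were chosen with earlier results of these data known. Sites were named by their nearest coding gene: the 10 highest folds among all sites, among sites not called after VTP50469 and among those in all 8 MLL1 lists, those with Menin in both lines and H3K4me3, those overlapping a noncoding gene, up to 4 per gene list, the clusters with most sites and the sites at the limits, of which 1 is not reported here. The miRNA sites, the sites in 13 lists, those of low fold and high −log10 q, the genes of the lists named for their number of sites called, 2 further clusters and the Myc region were added after values had been seen. The alternatives tried were other overlap rules, a −log10 q of at least 5, lists of equal length, other distance and width limits and other cluster gaps.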

Additional observations from a re-analysis of the deposited data

Results flagged for a closer look

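The effect of VTP50469 on MLL1 at the distal sites had opposite signs in different lines. The percent of distal sites called, VTP50469 minus DMSO, was 27.8 points in NUP98-JARID1A, −9.63 points in NUP98-HOXD13 and −8.18 points in NUP98-NSD1. All narrow sites had the same signs, at 15.4, −13.4 and −22.5 points, so the signs are those of the whole lists. The difference between the lines was not tested, since each condition is 1 library, and NUP98-NSD1 had 200 nM instead of 2 µM. With lists of equal length the values were 8.56, 5.67 and 0.0 points, so the opposite signs were not found there. With −log10 q of at least 5 in both lists they remained, at 28.3, −6.71 and −6.55 points.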

How the results depend on the processing

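No paired analysis was possible because each condition has 1 library. The share of distal sites not called after VTP50469 in NUP98-HOXA9 stayed between 19.1% and 25.6%: it was 25.6% with at least 50% of a site covered, 22.6% with the summit inside a region, 19.4% with regions widened by 500 bp, 19.2% with −log10 q of at least 5, 19.1% with lists of equal length and 22.6% beyond 50 kb from coding genes. The number of distal sites was 2210 beyond 25 kb, 1392 beyond 50 kb and 1612 beyond 10 kb from genes of every type. The difference from other narrow sites was 0.799 points beyond 50 kb, −3.26 points below 1000 bp in width, −2.85 points with 50% covered, and −17.0, −10.1 and −3.88 points in the 3 lowest bins of fold. With 50% covered, Menin was called at 22 distal sites after VTP50469 in NUP98-HOXA9, H3K4me3 at 63 after VTP50469 and 50 in DMSO (9 lost), and MLL1 of NUP98-NSD1 at 34 after VTP50469. With the summit rule, H3K4me3 was called at 43 after VTP50469 and 42 in DMSO, and the share lost was 38.1% (16 of 42) instead of 17.3%. Lists of equal length, which hold fewer sites by construction, gave 4 (Menin of NUP98-HOXA9 after VTP50469), 576 (the same in DMSO), 58 and 50 (H3K4me3 after VTP50469 and in DMSO), and 5 and 123 (MLL1 of NUP98-NSD1 after VTP50469 and in DMSO). Cut to equal length within each pair, losses were 28 (Menin of NUP98-HOXA9), 229 (MLL1 of NUP98-HOXD13), 213 (NUP98-JARID1A) and 29 (NUP98-NSD1), and VTP50469 minus DMSO turned to 0.148 points for Menin of NUP98-HOXA9, 5.67 points for MLL1 and 2.57 points for Menin of NUP98-HOXD13. The other 66 counts of called sites and 25 counts of lost sites under other settings stayed within 1.5 times those reported. The clustered minus single difference was 25.7 points with gaps under 10 kb and 16.4 points under 50 kb, against 20.8 points under 25 kb. The alternatives for clusters and for losses within pairs were chosen after seeing the data. Depth is unknown, so a site under the limit of −log10 q of 2 in a shorter list cannot be told from one without binding.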

Other observations

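Distal sites were also found by the same rule in each list on its own. They made up 20.2% of the narrow MLL1 regions of NUP98-JARID1A after VTP50469 (19.7% to 20.7%) and 11.7% in DMSO (11.2% to 12.2%), and in NUP98-HOXD13 13.8% after VTP50469 and 14% in DMSO. For Menin in NUP98-HOXA9 the shares were 21.7% of 337 regions after VTP50469 (17.6% to 26.4%) and 12.5% of 8949 in DMSO (11.9% to 13.2%), and for H3K4me3 2.98% and 3.64%.

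Among the 3387 distal sites 20 overlapped a transfer RNA gene, 16 an immunoglobulin or T cell receptor V segment and 11 a small nuclear RNA gene, and 27 lay within 10 kb of a segment of these receptor loci. Lta4h, which encodes an enzyme of leukotriene synthesis, had 3 distal sites near the miRNA gene Mir7688, of which 1 was called after VTP50469 (fold 4.87) and 2 were not (3.69 and 5.67).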
